A study of Mus musculus with 21 samples.

Results

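Skeletal muscle transcripts were followed in dorsal skin of hairless mice over 8 weeks of ultraviolet (UV) exposure. The set comprised 44 named genes of the contractile apparatus, of calcium handling, of muscle energy metabolism, of muscle atrophy and of myogenic transcription, and a gene was read only at probe sets annotated to that gene alone. By that rule 43 of the 44 genes were on the array, through 74 probe sets, out of 18194 genes with such a probe set. Xirp2, which encodes an actin-binding protein of striated muscle, had none. All 43 passed the filter on low intensity, on which 17403 genes were tested, and a gene with several probe sets was represented by the brightest on average.

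The animals were female albino hairless mice of the strain Hos:HR-1, and total RNA of dorsal skin was hybridised to 21 Affymetrix mouse genome-wide expression arrays, which read each transcript through several short probes near its 3' end. Non-irradiated control skin was taken at week 1 and at week 8, and irradiated skin after 1 and 2 weeks and then at week 4, week 6 and week 8, with 3 arrays in each of the 7 groups, each array from another mouse by the design description. Irradiated mice were exposed 3 times a week to a UV lamp, at a dose that began at 1 minimal erythema dose (100 mJ/cm2) and was raised weekly up to 4. The mice were obtained at 6 weeks of age and acclimated for 1 week. Isoflurane anaesthesia was given before irradiation, and whether control mice received it too was not stated. Control mice were not irradiated, and no group had a genetic change beyond the shared strain. Only weeks 1 and 8 had a control of the same week, so age and exposure cannot be told apart at weeks 2, 4 and 6.

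Skeletal muscle reaches skin samples through the panniculus carnosus, the thin sheet of striated muscle under the dermis of mice, which is rich in fast fibres. In a sarcomere, myosin of the thick filament pulls on actin of the thin filament, the troponins and tropomyosin gate that contact by calcium, and titin and nebulin set filament position and length. Calcium is released by the ryanodine receptor and pumped back by the calcium ATPase, and creatine kinase and glycolytic enzymes supply the ATP. Fast and slow fibres carry different isoforms of most of these proteins.

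Promoters of muscle genes are known to share short motifs, and the 250 bases before the transcription start are shown here for 4 members because these 4 were among the members that were lower in irradiated skin and stand for 4 roles: Acta1 for the thin filament, Myl1 for the thick filament, Trim63 for protein breakdown and Atp2a1 for calcium. The sequences are RefSeq's, build GRCm38.p6, written 5' to 3' on the strand of the gene. Capitals mark E-boxes (CANNTG, bound by myogenic factors and the same on both strands), M-CAT motifs on either strand (CATTCC on one of them), TATA boxes on the strand of the gene, MEF2 sites and CArG boxes.
Acta1 (chr8:123894776-123895025, minus strand): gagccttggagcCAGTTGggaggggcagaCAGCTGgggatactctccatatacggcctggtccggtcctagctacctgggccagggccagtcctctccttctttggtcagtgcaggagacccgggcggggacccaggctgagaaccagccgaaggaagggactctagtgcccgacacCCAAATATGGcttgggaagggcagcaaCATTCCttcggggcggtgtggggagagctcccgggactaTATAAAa
Myl1 (chr1:66945057-66945306, minus strand): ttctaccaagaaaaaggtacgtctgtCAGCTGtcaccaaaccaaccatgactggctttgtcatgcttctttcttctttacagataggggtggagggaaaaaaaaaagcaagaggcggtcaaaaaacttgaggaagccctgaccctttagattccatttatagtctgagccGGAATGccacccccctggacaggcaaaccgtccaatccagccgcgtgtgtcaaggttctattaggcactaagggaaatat
Trim63 (chr4:134314870-134315119, plus strand): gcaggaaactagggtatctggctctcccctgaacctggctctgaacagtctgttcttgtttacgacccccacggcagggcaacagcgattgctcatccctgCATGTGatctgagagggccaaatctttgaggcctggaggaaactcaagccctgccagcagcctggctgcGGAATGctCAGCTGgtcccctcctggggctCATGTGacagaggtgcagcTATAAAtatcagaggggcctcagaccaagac
Atp2a1 (chr7:126463074-126463323, minus strand): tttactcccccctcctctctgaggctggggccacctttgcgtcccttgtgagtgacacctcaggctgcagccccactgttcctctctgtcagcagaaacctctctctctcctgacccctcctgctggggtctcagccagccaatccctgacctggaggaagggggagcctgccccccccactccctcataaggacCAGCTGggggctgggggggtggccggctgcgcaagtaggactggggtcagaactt
Of the 44 genes 30 had a promoter entry, and 1 start per gene was read. For Myl1 (gene span chr1:66924295-66947932), as for some other members, that start lies inside the gene and not at its 5' end. An E-box stood in 25 of those 30 (83.3%), against 66.2% of the 32851 RefSeq promoters of the same length. The E-box with the centre CAGCTG stood in 14 of 30 (46.7%), against 13.0% of all promoters. M-CAT, read on both strands, stood in 9 of 30 against 12.6%, and a TATA box (TATAAA) in 5 of 30 against 7.6%. MEF2 sites, read on both strands, stood in 6 of 30 against 1.7%, and CArG boxes, bound by serum response factor, in 3 of 30 against 1.5%. The capitals of Acta1 hold 2 E-boxes, a CArG box, an M-CAT and a TATA box, those of Trim63 hold 3 E-boxes, an M-CAT and a TATA box, those of Myl1 an E-box and an M-CAT, and those of Atp2a1 1 E-box. These counts describe letters in a window and no binding was measured.

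Intensities are given as log2 values, on which a difference of 1 is a doubling, and no level of a gene is set against that of another, since probe sets differ in their response. On all 21 arrays 39 of the 43 members lay above the median intensity of their array. Cacna1s, the voltage sensor of the calcium release unit, did so on 19 arrays, Tnnc1, the slow and cardiac troponin C, on 8 and Myog, the late myogenic factor myogenin, on 1. Myod1, a factor of muscle commitment, was below the array median on all 21. All 6 keratinocyte genes tested lay above it on all 21, and every array thus held signal of skin and of fast muscle. Genes of the heart muscle list, by contrast, lay above the median on all arrays for 2 of the 6 tested. Correlations between arrays of a group over all probe sets ran from 0.962 to 0.996 over 21 pairs.

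**Figure D1:**
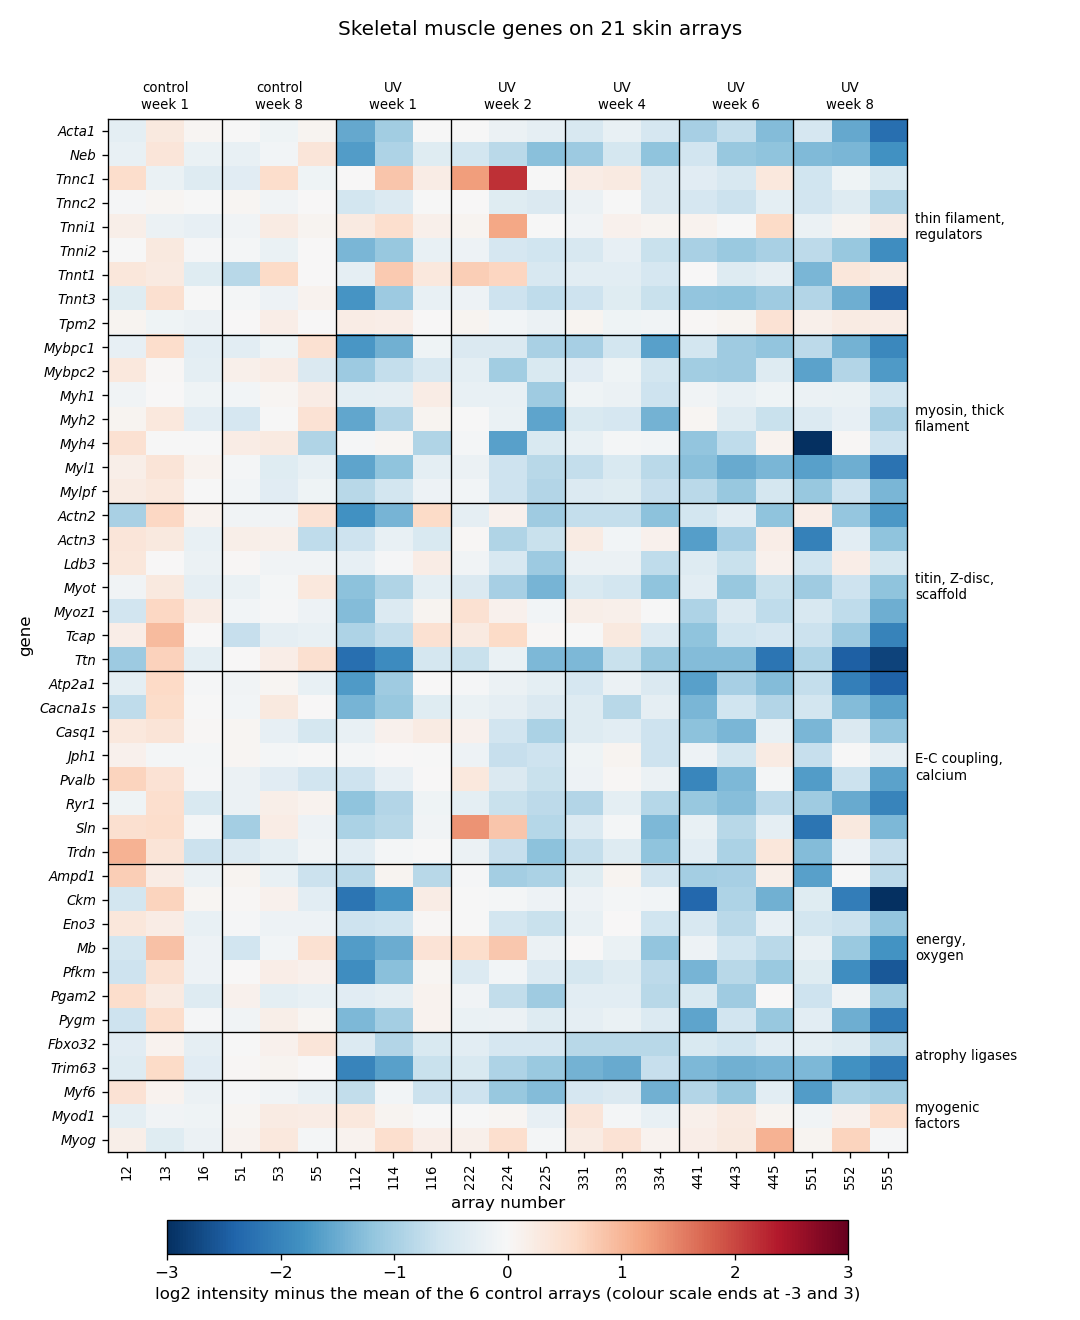
The colour of each cell is the log2 intensity of a gene (vertical axis, ordered by role) on an array (horizontal axis, ordered by group) minus the mean of the 6 control arrays. Blue prevails across the 15 UV arrays and is deepest on array 555 of UV week 8 and array 112 of UV week 1, while array 116 of UV week 1 is close to the controls.

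After 8 weeks of UV, some members of the contractile apparatus, of calcium release and of muscle energy supply were called lower in skin than in either control group, and others did not pass the test. A gene was called where it differed 2-fold or more and its p from limma, fitted to the 21 arrays together and adjusted by the Benjamini-Hochberg method over the 40540 probe sets tested, did not exceed 0.05. At UV week 8 against control week 1, 22 of 43 members were called lower, where 2.70% of all genes tested were. Against the control of the same week, 15 of 43 were called lower, where 1.68% of all genes were. No member was called higher in either comparison, where 0.994% and 0.569% of all genes were. Among those not called against control week 1, Myh1 gave a log2 fold change of -0.25, Tnnt1 of -0.34, Ldb3 of -0.36, Tnni1 of 0.12 and Tpm2 of 0.28. The median log2 fold change of the 43 members was -1.23 against control week 1 and -0.94 against control week 8, beside medians of 0.05 and 0.06 over all genes. In RNA of whole skin, fewer muscle cells, a smaller part of muscle in the sample and less RNA of these genes per cell cannot be told apart.

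On 17 of the 43 members all 3 arrays of UV week 8 lay below all 6 control arrays, which held for 6.91% of all genes. The limits of these counts lie in single arrays and in the estimate of spread. Without array 555 of UV week 8, 8 members were called against control week 1 and 3 against control week 8. Without array 13 of control week 1, 8 were called against that control, and without array 55 of control week 8, 4 were called against that one. The count against control week 8 was 8 without its array 51 or 53 and 7 without array 552 of UV week 8. With the spread taken from the 6 compared arrays alone, 1 member was called in each comparison.

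**Figure D2:**
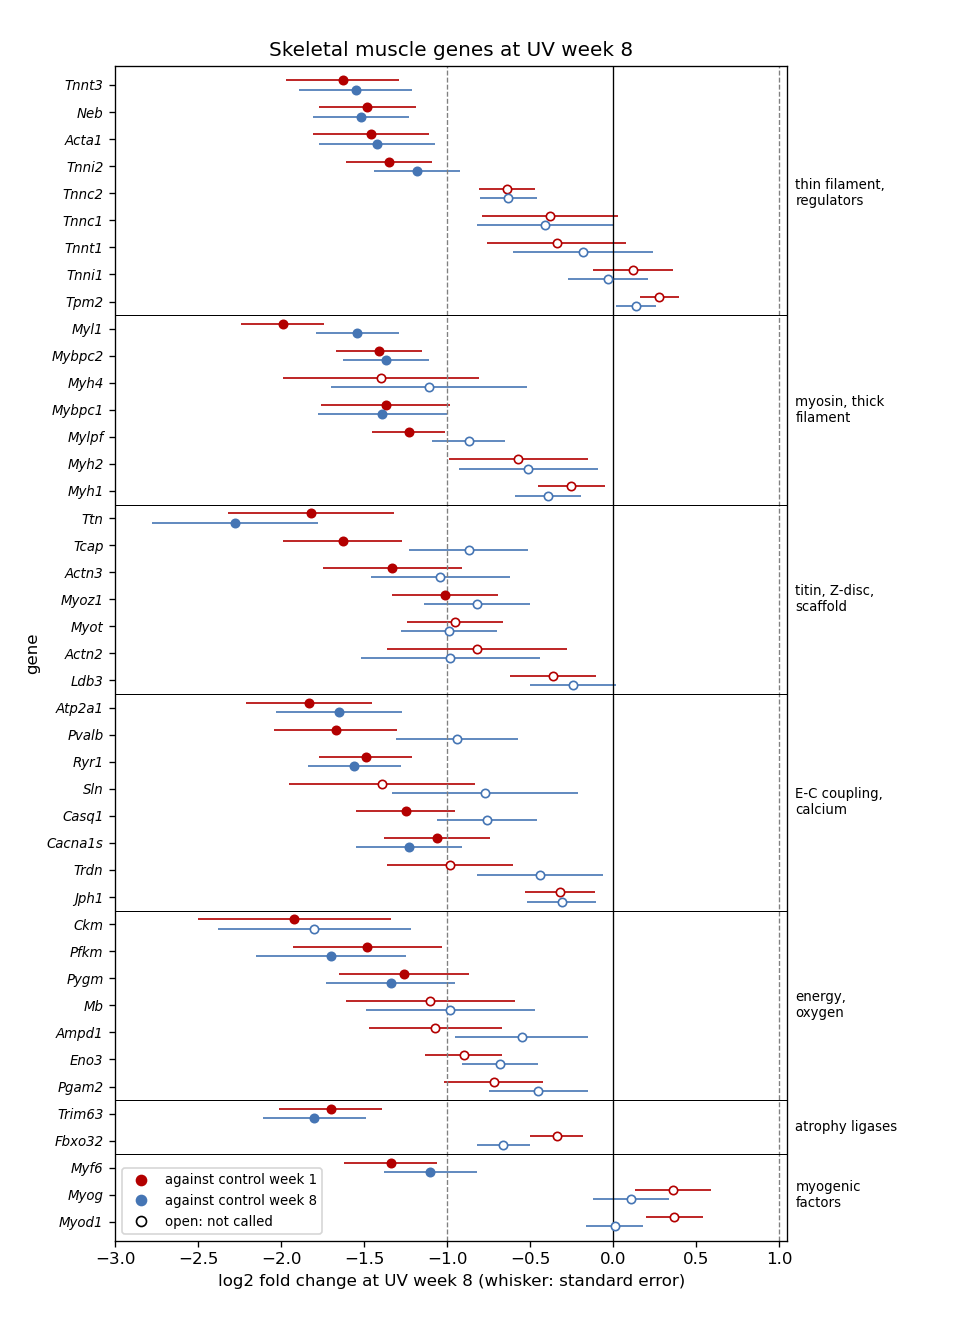
Each point is the log2 fold change (horizontal axis, whiskers are standard errors) of a gene (vertical axis, grouped by role) at UV week 8, in red against control week 1 and in blue against control week 8. Filled points are called, dashed lines mark 2-fold, and 22 red and 15 blue points are filled, all left of the line.

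Of the thin filament genes, 4 of 9 were called lower at UV week 8 against control week 1, and the same number against control week 8. Acta1, the actin of skeletal muscle thin filaments, read 13.61, 14.19 and 13.96 at control week 1, 13.90, 13.77 and 13.98 at control week 8, and 13.40, 12.36 and 11.64 at UV week 8. The UV arrays lay below all 6 control arrays, with array 555 the lowest. The log2 fold change of Acta1 was -1.46 (SE 0.35, adjusted p = 0.0147) against control week 1 and -1.42 (adjusted p = 0.0259) against control week 8, and on the arrays of low beta-actin ratio alone (described with RNA integrity) it was -0.68 (adjusted p = 0.061).

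Neb encodes nebulin, the giant ruler of the thin filament. It read 10.96, 11.55 and 10.99 at control week 1, 10.97, 11.10 and 11.54 at control week 8, and 9.87, 9.82 and 9.36 at UV week 8, a log2 fold change of -1.48 (SE 0.29, adjusted p = 0.00481) against control week 1. The arrays of UV week 8 were close to each other and stood clear of both controls. Fast troponin T, Tnnt3, was lower by a log2 fold change of -1.63 (SE 0.34, adjusted p = 0.00691), from a mean of 12.45 ± 0.42 (SD, n = 3) to 10.82 ± 0.78. Tnni2, fast troponin I, was lower by -1.35 (SE 0.26, adjusted p = 0.00375), although its next brightest probe set gave -0.48 (adjusted p = 0.15). Tnnc2, fast troponin C, was 13.66, 13.77 and 13.70 at control week 1 and 13.12, 13.32 and 12.77 at UV week 8. These arrays did not overlap and the adjusted p was 0.0233, but the log2 fold change of -0.64 was short of 2-fold.

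The slow troponins did not pass the test. Tnnt1, slow troponin T, had a log2 fold change of -0.34 (SE 0.42, adjusted p = 0.59), Tnni1, slow troponin I, of 0.12 (SE 0.24, adjusted p = 0.751) and Tnnc1 of -0.38 (SE 0.41, adjusted p = 0.541), and in each the arrays of the groups overlapped. Whether fast and slow isoforms differed in their change was not tested. Tpm2, beta-tropomyosin, is made in smooth muscle and other cells as well, and its probe sets disagreed. Against control week 1 the brightest gave 0.28 (adjusted p = 0.13) and the next 0.19 (adjusted p = 0.242). The remaining 2 gave -0.98 (adjusted p = 0.00977) and -0.90 (adjusted p = 0.0855). Against control week 8 these 2 gave -1.03 (adjusted p = 0.0133) and -0.95 (adjusted p = 0.0904), and the brighter ones 0.14 and 0.03. The -1.03 met the rule for a call.

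Of the 7 myosin and thick filament genes, 4 were called lower against control week 1 and 3 against control week 8. Myl1, the essential light chain of fast myosin, had the most negative log2 fold change of all members against control week 1. It read 13.46, 13.69 and 13.39 at control week 1, 13.23, 12.92 and 13.06 at control week 8, and 11.67, 11.82 and 11.08 at UV week 8. The UV arrays were below every control array by more than 1 log2 unit. Its log2 fold change was -1.99 (SE 0.25, adjusted p = 0.000234) against control week 1, a ratio of 3.98, and -1.54 (SE 0.25, adjusted p = 0.00329) against control week 8. Under all 18 alternative settings of the comparison with control week 1, Myl1 was called, with values from -2.14 to -1.34.

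Mylpf, the regulatory light chain of fast myosin, was lower by -1.23 (SE 0.22, adjusted p = 0.00283) against control week 1, and at -0.87 (adjusted p = 0.028) against control week 8 it was short of 2-fold. Mybpc1 and Mybpc2, the slow and fast myosin-binding proteins C, were lower by -1.37 (adjusted p = 0.0294) and -1.41 (adjusted p = 0.00337) against control week 1, with all UV week 8 arrays below all controls. The heavy chains themselves were not called. Myh1, the IIx heavy chain, read 13.94, 14.06 and 13.91 at control week 1 and 13.85, 13.84 and 13.45 at UV week 8, a log2 fold change of -0.25 (SE 0.20, adjusted p = 0.395), and Myh2, the IIa chain, gave -0.57 (SE 0.42, adjusted p = 0.354). Heavy chain genes are close paralogs, and the suffix of the Myh1 probe set, _x_at, is the maker's mark for probes that match other sequences too, so the split between chains is uncertain.

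Myh4, the IIb heavy chain of the fastest fibres, read 13.62, 13.15 and 13.14 at control week 1 and 10.01, 13.19 and 12.53 at UV week 8. Array 551 alone stood far below, and array 552 lay within the control range. The log2 fold change of -1.40 had a standard error of 0.59 and an adjusted p of 0.116.

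Titin, the Z-disc and its scaffold gave 4 of 7 members called against control week 1 and 1 of 7 against control week 8. Ttn, the giant spring of the sarcomere, read 10.28, 12.04 and 11.06 at control week 1, 11.37, 11.55 and 11.85 at control week 8, and 10.43, 8.92 and 8.57 at UV week 8. Array 12 of control week 1 was low and overlapped with the UV arrays, while the control of week 8 did not. Changes in log2 were -1.82 (SE 0.50, adjusted p = 0.0275) and -2.28 (SE 0.50, adjusted p = 0.0157) in this order. Of its 5 other probe sets the brightest gave -2.38 (adjusted p = 0.0379) against control week 1. The next gave -0.81 (adjusted p = 0.0261), short of 2-fold, and the remaining ones, with dim means of 3.41 to 4.00, gave -0.06, 0.02 and 0.16. Tcap, the titin cap at the Z-disc, was lower by -1.63 (SE 0.36, adjusted p = 0.00919) against control week 1 and gave -0.87 (adjusted p = 0.132) against control week 8. Actn3, the alpha-actinin of fast fibres, was lower by -1.33 (adjusted p = 0.0449), and Myoz1, a Z-disc binder of calcineurin, by -1.01 (adjusted p = 0.0457), both called against control week 1 alone. The dimmer probe set of Myoz1 gave -0.08 (adjusted p = 0.888) against control week 1 and 0.14 (adjusted p = 0.805) against control week 8.

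Of the 8 genes of excitation-contraction coupling and calcium, 5 were called against control week 1 and 3 against control week 8. Atp2a1, the fast sarcoplasmic calcium ATPase, read 11.69, 12.58 and 11.94 at control week 1, 11.87, 12.05 and 11.76 at control week 8 and 11.26, 9.92 and 9.56 at UV week 8. All UV arrays were below all controls, array 551 by the least. Its log2 fold change was -1.83 (SE 0.38, adjusted p = 0.00659) and -1.65 (adjusted p = 0.0198). Ryr1, the calcium release channel, was lower by -1.49 (SE 0.28, adjusted p = 0.0038) and -1.56 (adjusted p = 0.00581). Cacna1s was lower by -1.06 (adjusted p = 0.0381) and -1.23 (adjusted p = 0.0306). Pvalb, the calcium buffer parvalbumin of fast fibres, was lower by -1.67 (SE 0.37, adjusted p = 0.01) against control week 1, from 11.98 ± 0.36 to 10.32 ± 0.58 (SD, n = 3 each), and gave -0.94 (adjusted p = 0.116) against control week 8. Casq1, the calcium store protein calsequestrin, was lower by -1.25 (adjusted p = 0.0136) against control week 1. Sln, sarcolipin, an inhibitor of the calcium pump, gave -1.39 (SE 0.56, adjusted p = 0.103), with arrays from 6.90 to 9.39 at UV week 8.

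In energy metabolism and oxygen storage 3 of 7 members were called against control week 1 and 2 of 7 against control week 8. Ckm, the muscle creatine kinase, read 11.17, 12.39 and 11.78 at control week 1, 11.75, 11.84 and 11.40 at control week 8, and 11.36, 9.65 and 8.59 at UV week 8. Array 551 lay within the range of control week 1, and arrays 552 and 555 far below it. Changes in log2 were -1.92 (SE 0.58, adjusted p = 0.04) and -1.80 (SE 0.58, adjusted p = 0.0654), the latter not called. Pfkm, muscle phosphofructokinase, was lower by -1.48 (adjusted p = 0.0396) and -1.70 (adjusted p = 0.0323), and Pygm, muscle glycogen phosphorylase, by -1.26 (adjusted p = 0.0444) and -1.34 (adjusted p = 0.0467). Mb, myoglobin, which stores oxygen in oxidative fibres, gave -1.10 (SE 0.51, adjusted p = 0.152).

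Trim63, which encodes the ubiquitin ligase MuRF1 that tags sarcomere proteins for breakdown and is commonly raised in wasting muscle, was lower. It read 8.58, 9.52 and 8.62 at control week 1, 9.0, 9.04 and 8.98 at control week 8, and 7.62, 7.13 and 6.86 at UV week 8. On the log2 scale the change was -1.70 (SE 0.31, adjusted p = 0.00291) against control week 1 and -1.80 (SE 0.31, adjusted p = 0.00434) against control week 8. Fbxo32, the other classical atrophy ligase (atrogin-1), was not called, at -0.34 (SE 0.16, adjusted p = 0.157) and -0.66 (SE 0.16, adjusted p = 0.0245, short of 2-fold). Its other 2 probe sets gave -0.97 (adjusted p = 0.0133) and -0.69 (adjusted p = 0.107) against control week 1. Against control week 8 they gave -1.24 (adjusted p = 0.00714), which met the rule for a call, and -0.64 (adjusted p = 0.154).

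Of the myogenic transcription factors, Myf6 (MRF4), the factor kept on in adult fibres, was lower by -1.34 (SE 0.28, adjusted p = 0.00691) and -1.10 (adjusted p = 0.0292), with arrays of 8.55, 8.22 and 7.93 at control week 1 and 6.44, 7.17 and 7.06 at UV week 8. Myod1 gave 0.37 (SE 0.17, adjusted p = 0.139) and Myog 0.36 (SE 0.23, adjusted p = 0.284) against control week 1.

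The 8 members not yet described were not called at UV week 8 against control week 1. Myot gave -0.95 (adjusted p = 0.0391) and Eno3, the muscle enolase, -0.90 (adjusted p = 0.019), both short of 2-fold with no overlap of the arrays. Ampd1 gave -1.07 (adjusted p = 0.0846), Trdn, the junction protein triadin, -0.98 (adjusted p = 0.0953) and Pgam2, muscle phosphoglycerate mutase, -0.72 (adjusted p = 0.117). A dimmer probe set of Trdn gave -1.99 (adjusted p = 0.00141), and its remaining ones ran from -1.05 to 0.03. Actn2 gave -0.82 (SE 0.54), Ldb3, a Z-disc protein, -0.36 (SE 0.26) and Jph1, which ties the membranes of the calcium release unit, -0.32 (SE 0.21), each with overlapping arrays. No probe set of any member was called higher in this comparison, and 24 of the 72 tested were called lower. Of all 40540 probe sets tested, 1011 were called lower and 311 higher.

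**Figure D3:**
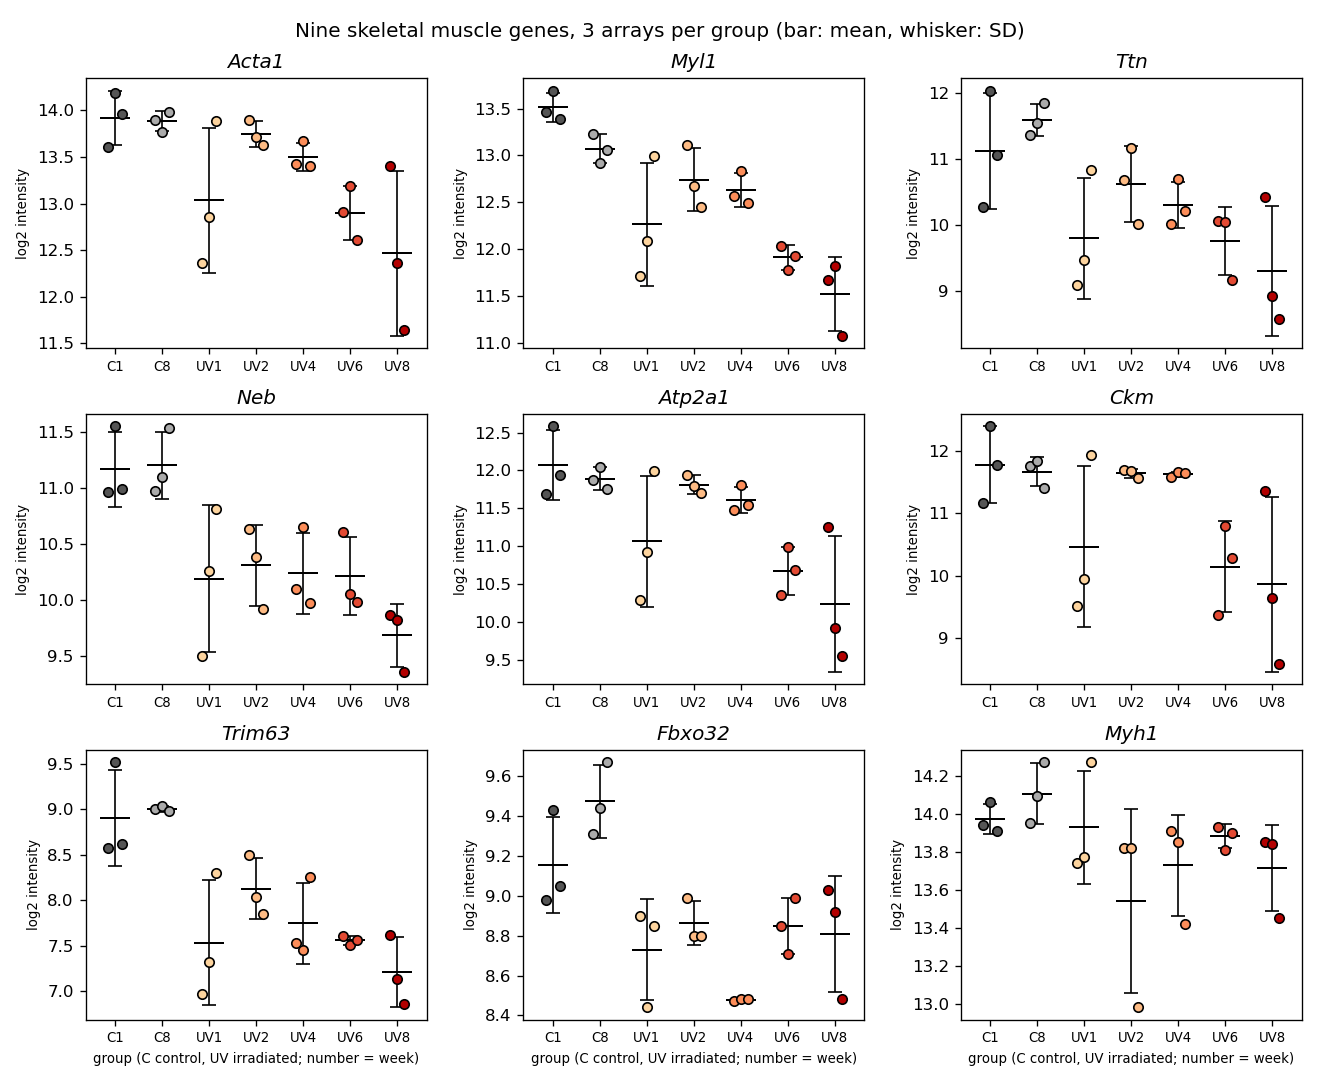
Log2 intensity (vertical axis) of 9 members in the 7 groups (horizontal axis), each point an array, with the mean of 3 arrays and its SD. Trim63 and Neb lie lower in all 15 UV arrays than in all 6 control arrays, Myl1 does so at weeks 4, 6 and 8, and Myh1 overlaps in most groups.

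The course over the weeks was followed against control week 1, whose arrays all 5 comparisons share. At UV weeks 1, 2 and 4 no member was called lower, where 0.0115%, 0.0345% and 0.684% of all genes were, and none was called higher, where 0%, 0.0230% and 0.259% were. At an unadjusted p under 0.05, 19 members were lower at week 1, 15 at week 2 and 12 by week 4 in limma, and 0, 1 and 0 were higher. Of all 17403 genes, 1715, 712 and 1362 were lower at that threshold, and 1697, 727 and 1095 were higher. The median log2 fold change of the 43 members was -0.71 at week 1 and -0.50 at week 2, then -0.46 in week 4 skin, and it reached -0.86 at week 6 before the -1.23 of week 8. At week 6, 9 members were called lower, where 1.85% of all genes were, and 0 higher, where 0.707% were. These were Myl1, Pvalb, Atp2a1, Trim63, Casq1, Tnnt3, Tcap, Tnni2 and Ryr1. Without array 13 of control week 1 the count was 1, and without array 441 or 443 of UV week 6 it was 5.

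Values at week 1 were split within the group. For Myl1 the arrays of UV week 1 read 11.72, 12.09 and 12.99, and for Acta1 12.36, 12.86 and 13.89. Array 116 sat near the controls in both. Its beta-actin ratio (described with RNA integrity) was 2.71, against 4.88 and 4.39 on arrays 112 and 114, so the split went along with that ratio. The part of RNA integrity in it was not tested. Without array 116, which left the arrays of high ratio at UV week 1, 8 members were called lower at week 1. Without array 12 of control week 1, whose ratio was 4.74, 2 were. For Trim63 the UV means were 7.53 ± 0.69 at week 1 and 8.13 ± 0.34 at week 2, 7.75 ± 0.45 in week 4 skin, then 7.56 ± 0.05 at week 6 and 7.21 ± 0.39 at week 8 (SD, n = 3 each), beside 8.90 ± 0.53 and 9.01 ± 0.03 in the controls. The log2 fold change of Trim63 at week 1 was -1.37 (SE 0.31), with an adjusted p of 0.111.

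Across all weeks together, the mean of the 5 UV groups was set against the mean of both controls. Here 5 members were called lower, where 0.580% of all genes were, and 0 higher, where 0.264% were. They were Ttn at -1.40 (SE 0.30, adjusted p = 0.00562), Trim63 at -1.32 (SE 0.18, adjusted p = 0.000377), Myl1 at -1.07 (SE 0.15, adjusted p = 0.000384), Neb at -1.06 (SE 0.17, adjusted p = 0.00123) and Mybpc1 at -1.02 (SE 0.23, adjusted p = 0.00782). With no minimum fold 21 members passed, all lower, where 1713 of the 17403 genes were lower and 1185 higher. In 3 of the 43 members, Trim63, Neb and Myot (myotilin, a Z-disc protein), all 15 UV arrays lay below all 6 control arrays, which held for 0.546% of all genes. For Trim63 the UV arrays ran from 6.86 to 8.50 and the control arrays from 8.58 to 9.52. Fbxo32 was lower by -0.57 (SE 0.10, adjusted p = 0.00151), short of 2-fold. The count was 3 without array 13 of control week 1, array 55 of control week 8 or array 112 of UV week 1. It was 8 without array 12 of control week 1 or array 116 of UV week 1 and 9 without array 551 of UV week 8.

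Without UV, the step from week 1 to week 8 called 0 members lower or higher, where 0.0460% and 0.0402% of all genes were. In limma, 1 member in each direction had an unadjusted p under 0.05, as did 571 genes lower and 504 higher of 17403. The median log2 fold change of the members was -0.06. The change from week 1 to week 8 under UV against the same change without UV called 0 members and 0% of all genes in either direction. In limma, 1 member was lower at an unadjusted p under 0.05 and 0 higher, as were 368 genes lower and 393 higher of 17403. For Trim63 this difference was -0.43 (SE 0.44) and for Myl1 -0.29 (SE 0.36). Late UV skin (weeks 6 and 8) against early UV skin (weeks 1 and 2) called 1 member lower, where 0.477% of all genes were, and 0 higher, where 0.230% were. That member was Tnnc1, at -1.03 (SE 0.29, adjusted p = 0.0441). Its arrays read 4.76, 5.57 and 4.95 at UV week 1 and 6.00, 6.94 and 4.73 at UV week 2, against 4.39, 4.26 and 5.06 at UV week 6 and 4.15, 4.62 and 4.27 at UV week 8. Arrays 222 and 224 of week 2 were the highest of all 21, and without either of them no member was called, as was so without array 116 of UV week 1, array 441 of UV week 6 or array 555 of UV week 8. Without array 112 of UV week 1 the count was 4, without array 445 of UV week 6 or array 551 of UV week 8 it was 3, and without array 443 of UV week 6 it was 2.

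Members varied more between mice of a group than most genes. The median SD within groups was 0.43 log2 units over the members and 0.21 over all genes, and 25 of 43 members were above the 90th percentile of genes by this measure. Myh4 stood at percentile 99.2, Ckm at 99.1, Sln at 99.0 and Actn2, an alpha-actinin of muscle Z-discs, at 98.9, while Tpm2 stood at 10.2. Members did not move as a block from array to array. Array 551 of UV week 8 was the lowest of all 21 arrays for Myh4 at 10.01, Actn3 at 8.00, Sln at 6.90, Ampd1 (muscle AMP deaminase) at 6.98 and Tnnt1 at 5.98. The same array was the highest of its group for Ckm at 11.36, Acta1 at 13.40, Ttn at 10.43 and Mb at 11.26. Its beta-actin ratio (described with RNA integrity) was 2.77, against 5.14 and 4.90 on arrays 552 and 555. Slopes on that ratio were 0.55 for Myh4, 0.39 for Ampd1, 0.28 for Actn3, 0.24 for Sln and 0.19 for Tnnt1. For Ckm, Ttn, Mb and Acta1 they were -0.59, -0.52, -0.39 and -0.34. Those of Actn3, Sln and Tnnt1 had an adjusted p above 0.05 in limma. The part of RNA integrity was not tested. Array 224 of UV week 2 was the highest of all arrays for the slow troponin genes Tnnc1 at 6.94 and Tnni1 at 6.36, and low for Myh4 at 11.54. How many fibres of each type a sample held was not measured.

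RNA integrity differed between arrays, and values of members and of genes at large moved with it. It was read as the log2 ratio of the 3' to the 5' control probe set of beta-actin, which rises as RNA is broken or copied incompletely. The ratio was 4.74, 2.55 and 2.37 at control week 1, 3.46, 3.11 and 3.43 at control week 8, 4.88, 4.39 and 2.71 at UV week 1, 4.12, 2.36 and 5.11 at UV week 6 and 2.77, 5.14 and 4.90 at UV week 8, and between 2.26 and 4.05 at UV weeks 2 and 4. Of the 8 arrays with a ratio above 4, 7 were irradiated. The same ratio of Gapdh gave another picture, with high values on control arrays too. It was 6.95, 3.66 and 2.79 at control week 1, 5.98, 4.85 and 6.21 at control week 8, and 2.37, 6.09 and 5.93 at UV week 8. Within groups, 11 members had lower values with a higher beta-actin ratio, where 16.6% of all genes did. Higher values were found for 5, where 17.5% of all genes had them (limma, adjusted p of at most 0.05). Ckm changed by -0.59 log2 units per unit of the beta-actin ratio (adjusted p = 0.00177), Ttn by -0.52 (adjusted p = 0.00113) and Acta1 by -0.34 (adjusted p = 0.00301). Myh4 went the other way, at 0.55 (adjusted p = 0.00572), as did Ampd1 at 0.39 and Myf6 at 0.26. Myl1 had a slope of -0.08 (adjusted p = 0.443) and Neb of -0.11 (adjusted p = 0.325).

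**Figure D4:**
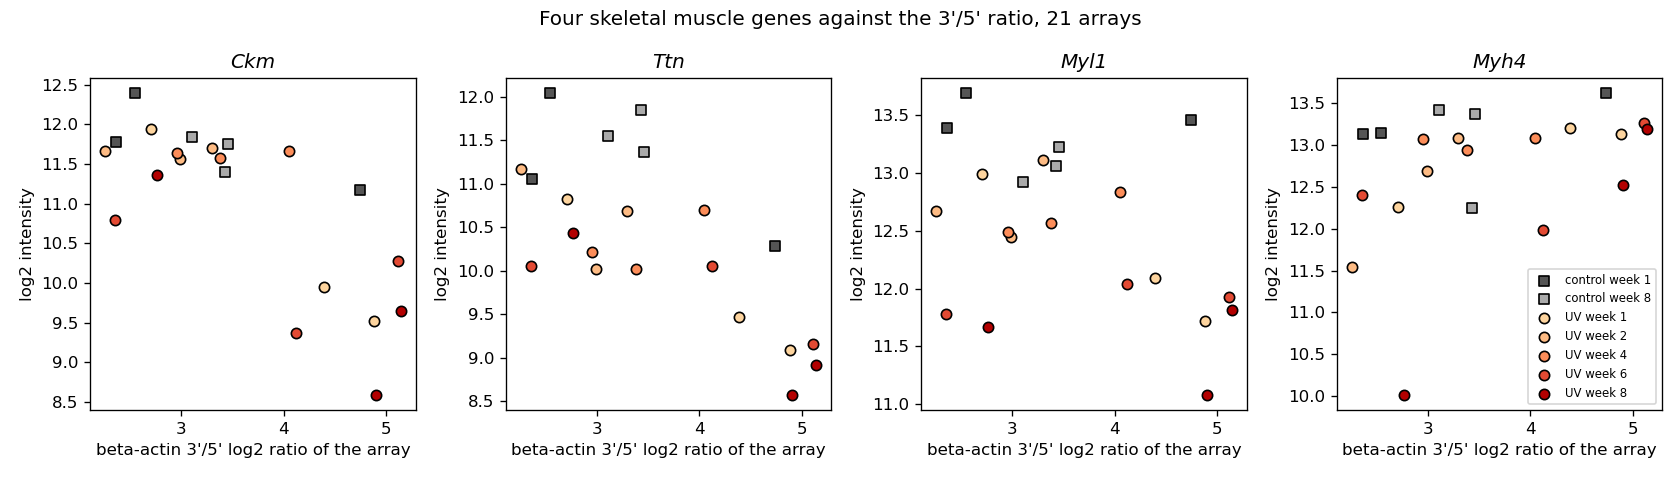
Log2 intensity (vertical axis) of 4 members against the beta-actin 3'/5' log2 ratio of the array (horizontal axis), with squares for the 6 control arrays and circles for the 15 UV arrays. Ckm and Ttn are lowest on the arrays of high ratio, Myl1 is low at UV week 8 at a ratio of 2.77 as well as at 4.90 and 5.14, and Myh4 is lowest on an array of low ratio.

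With the beta-actin ratio in the fit, 20 members were called lower at UV week 8 against control week 1, with a median of -1.10 over the 43. Against control week 8, 15 were. The shares of all genes called in this fit, and on the low-ratio arrays below, are not given. Whether these counts changed more than those of genes at large was thus not tested. The log2 fold change of Ckm was then -1.30 (adjusted p = 0.0497), of Ttn -1.28 (adjusted p = 0.0235), of Acta1 -1.10 (adjusted p = 0.0112), of Trim63 -1.46 (adjusted p = 0.00247) and of Myl1 -1.91 (adjusted p = 0.000192). Against control week 1, Myh4 at -1.97 (adjusted p = 0.00934), Ampd1 at -1.48 (adjusted p = 0.00423) and Trdn at -1.36 (adjusted p = 0.006) gained a call. Pfkm at -1.01 (adjusted p = 0.0502), Mybpc1 at -1.15 (adjusted p = 0.052), Pygm at -0.82, Cacna1s at -0.71 and Myoz1 at -0.70 lost theirs. Against control week 8, Myh4, Actn3 and Myot gained a call, and Mybpc1, Pygm and Cacna1s lost theirs. At UV week 6, 14 members were called in place of 9. On the arrays with a ratio of at most 4 alone, which left 1 array at UV week 8 (array 551) and 2 at control week 1, 12 members were called against control week 1 and 3 against control week 8. Myl1 was then at -1.88 (adjusted p = 0.0058) and Neb at -1.40 (adjusted p = 0.0401), and Trim63 at -1.44 (adjusted p = 0.0655) was not called. Myh4 and Ampd1, not called on all arrays, differed by more there, at -3.14 and -1.65 in place of -1.40 and -1.07 against control week 1. Further members also differed by more there, among them Sln at -2.43 in place of -1.39, Actn3 at -2.07 in place of -1.33 and Tnnt1 at -1.32 in place of -0.34. Some members differed by less there than on all arrays. Against control week 1, Ckm was at -0.73 (adjusted p = 0.144) in place of -1.92, Pfkm at -0.53 (adjusted p = 0.317) in place of -1.48, Pygm at -0.57 (adjusted p = 0.207) in place of -1.26 and Ttn at -1.12 (adjusted p = 0.217) in place of -1.82. Atp2a1, at -1.83 on all arrays, was there at the 2-fold limit (adjusted p = 0.0465) and among the 12 called. Against control week 8, Ckm was at -0.30 (adjusted p = 0.59) in place of -1.80.

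Some further genes of skeletal muscle were called lower at UV week 8 as well, and most were not called. From a list of 69 such genes, 64 were tested and 12 were called lower against control week 1, beside the 2.70% of all genes, with 0 higher and a median of -0.55. Against control week 8, 6 of 64 were called lower, beside 1.68% of all genes, with 0 higher and a median of -0.50. Casq2, the calcium store protein of slow and heart muscle, was higher by 0.42 (SE 0.13, adjusted p = 0.0466) against control week 1, short of the 2-fold limit. Apobec2, a muscle protein of the cytidine deaminase family, went from 11.86 ± 0.34 to 10.07 ± 0.67 (SD, n = 3 each), a log2 fold change of -1.79 (SE 0.35, adjusted p = 0.0047), while Myom2, the M-band protein of fast fibres, gave 0.08 (SE 0.38, adjusted p = 0.905). With the mean of this list on each array in the fit, 1 member was called at UV week 8 against control week 1, Myl1 at -1.34 (adjusted p = 0.0128), and 0 against control week 8. Trim63 was then at -1.29 (adjusted p = 0.105). At week 6 Myl1, at -1.11 (adjusted p = 0.0161), was again the only member called.

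The non-members whose values followed the mean of the members most closely over the 21 arrays were Tpm1 (alpha-tropomyosin, r = 0.961), Adssl1 (muscle adenylosuccinate synthase, r = 0.958), Pde4dip (myomegalin, r = 0.95), Ppp1r12b (a myosin phosphatase subunit, r = 0.945) and Rpl3l (a ribosomal protein of striated muscle, r = 0.941). Apobec2, Smtnl1, Tarsl2, Mypn and Myom1 came next, with r from 0.9 to 0.932. These points share their arrays, their RNA quality and their groups.

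Lists for other cells were read beside the members at UV week 8 against control week 1. Of 8 fat cell genes tested, 3 were called lower and 0 higher, with a median of -1.20. Lep (leptin) was lower by -2.27 (SE 0.42, adjusted p = 0.00338) and Adipoq (adiponectin) by -1.36 (SE 0.30, adjusted p = 0.0088), and 0 of the 8 were called against control week 8. Of 7 fibroblast genes 3 were called lower, among them Dcn (decorin) at -1.94 (SE 0.60, adjusted p = 0.0416), with a median of -0.71. Of 9 smooth muscle genes 0 were called, with a median of -0.72, and of 6 keratinocyte genes 0, with a median of -0.08. Against control week 8, 2 of the 7 fibroblast genes were called lower, Dcn at -2.15 (SE 0.60, adjusted p = 0.0392) and Lum (lumican) at -1.47 (SE 0.40, adjusted p = 0.0362). In the same comparison 1 of the 9 smooth muscle genes was called lower, Synpo2 (an actin-binding protein) at -1.09 (SE 0.32, adjusted p = 0.0496), and 1 of the 6 keratinocyte genes, Trp63 (the transcription factor p63 of basal cells) at -1.07 (SE 0.22, adjusted p = 0.0116). None of these lists had a gene called higher in either comparison. The mean log2 level of the keratinocyte list ran from 12.58 to 13.22 on the arrays of control week 1 and from 12.00 to 13.30 at UV week 8, that of the fat cell list from 9.24 to 9.98 and from 8.03 to 8.73, and that of the fibroblast list from 12.50 to 12.77 and from 11.29 to 12.23. The part of tissue make-up in the change of the members was not tested. Of 9 genes of satellite cells and muscle formation 0 were called, with a median of 0.08, and of 7 genes known to rise after denervation 0, with a median of -0.02. Of 6 heart muscle genes 0 were called, with a median of 0.07. In these last 3 lists 0 were called against control week 8 too.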

How the data were processed

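RNA of dorsal skin from irradiated and control mice was measured on 21 Affymetrix mouse expression arrays, and the authors deposited 1 table of linear intensity for 45101 probe sets. The submitters' processing notes name RMA, while the study's methods name Expression Console with a MAS5 preprocessor, so the summary method is uncertain. Detection calls and scanner files were not used here. Array medians lay between 30.1 and 33.3 intensity units, and the number of arrays limits the precision.

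Intensities were floored at 1 and taken to log2. Control probe sets (64) and probe sets below the 20th percentile of every array were left out, which kept 40540. In limma 3.58.1 (R 4.3.3) a model with a mean for every group and 14 residual degrees of freedom took in the 21 arrays, Benjamini-Hochberg adjustment ran over the probe sets kept, and a call needed 2-fold or more with an adjusted p of at most 0.05. The script was tested on simulated data. Genes came from the platform annotation, where 32317 tested probe sets had 1 symbol, 853 several and 7370 none. Promoters came from RefSeq.

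The members, lists and named genes were chosen with earlier results of these data known. A fixed set of 25 members was given whatever it showed, with up to 10 called members per direction and comparison. Of other lists, up to 4 genes of highest mean and up to 2 of largest UV difference were open to naming. Alternatives were an offset of 16, no filter, quantile normalization, a fit to the compared groups alone, no minimum fold, removal of probe sets that differed 1.5-fold between controls, array weights, an intensity trend, the mean of a gene's probe sets, covariates and each array left out. The Gapdh ratio and the restriction to a beta-actin ratio of at most 4 were added after seeing the data. Where nothing but the design description ties arrays to separate mice, p-values measure the spread between these arrays.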

Additional observations from a re-analysis of the deposited data

How the results depend on the processing

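No paired analysis was possible because the array numbers are not shared between groups. Of the 52 calls of a member in a comparison, none changed direction under any alternative; a fit to the compared groups alone kept 7 of the 46 it applies to, and the other skeletal muscle genes as covariate kept 2 of 52. Counts of members called lower moved over 1.5 times as follows, and the cause was not tested. The shares of all genes called under these alternatives are not given here. At UV week 1, array weights gave 14 and the Gapdh ratio 2 in place of 0. At UV week 2, array weights and the beta-actin ratio gave 1 each in place of 0. At UV week 4, no minimum fold, array weights and the Gapdh ratio gave 1 each, the beta-actin ratio 2 and the arrays of low ratio 6 in place of 0. At UV week 6, the beta-actin ratio gave 14 and the muscle covariate 1 in place of 9. At UV week 8 against control week 1, the compared groups alone and the muscle covariate gave 1 each and the arrays of low ratio 12 in place of 22. Against control week 8 these gave 1, 0 and 3 in place of 15. For the mean of the UV groups, quantile normalization and the mean of probe sets gave 3 each, no minimum fold 21, array weights 10, the Gapdh ratio 9 and the muscle covariate 0 in place of 5. For late against early UV, the offset and the muscle covariate gave 0, no minimum fold 6, array weights 3, the beta-actin ratio 2 and the arrays of low ratio 2 in place of 1. With each array left out in turn, counts ran from 0 to 8 at UV week 1, from 1 (without array 13 of control week 1) to 13 (without array 12) at UV week 6, from 8 to 23 at UV week 8 against control week 1, from 3 to 18 against control week 8, from 3 to 9 for the mean of the UV groups and from 0 to 4 for late against early UV. They were 0 throughout at UV weeks 2 and 4, between the controls and for the interaction, and 0 members were called higher under any setting. The restriction to low ratios left 1 array at UV weeks 1, 6 and 8, assumed to vary like the other groups.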
